A study of Homo sapiens with 18 samples.

Results

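Transcripts of 10 genes of the NF-κB system were followed in MCF10A cells that had lost CBFB or RUNX1. The members were 5 genes for the DNA-binding subunits (NFKB1, NFKB2, REL, RELA and RELB), 3 for cytoplasmic inhibitors (NFKBIA, NFKBIB and NFKBIE), NFKBIZ for a nuclear IκB protein, and TNFAIP3 for an enzyme that brakes the pathway upstream. They were taken by symbol from the authors' 3 tables of knockout against wild type (WT) and joined by Entrez ID, 10 of the 19401 genes listed in any table. The CBFB KO table listed 9 of them, without TNFAIP3, and both RUNX1 tables listed all 10.

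MCF10A cells are immortalized, non-tumorigenic cells of the human mammary epithelium. The cells were grown in serum with insulin, EGF, hydrocortisone and cholera toxin, and no further agent was applied to any group. CRISPR-Cas9 had been used to disrupt CBFB in 1 single-cell line (CBFB KO, 3 samples, against its own WT, 3 samples) and RUNX1 in the lines labelled RUNX1 KO1 and RUNX1 KO2 (4 samples each, against the same 4 WT samples). All 18 samples were of this one parental line, so every comparison carries the differences between a single clone and its parent, and values of KO1 and KO2 are not independent of each other. CBFB is the partner that stabilizes RUNX proteins on DNA, and the comparisons ask which transcripts depend on either gene.

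NF-κB subunits bind DNA as dimers. In resting epithelial cells the IκB proteins hold most dimers in the cytoplasm. Signals from TNF, IL-1 or Toll-like receptors activate the IκB kinases, IκB is degraded, and the dimers enter the nucleus. RELA and NFKB1 products form the classical dimer, while RELB and the processed NFKB2 product form the dimer of the non-canonical branch, which is driven by receptors such as LTBR. NF-κB itself induces several of these genes, among them NFKB1, NFKB2, REL, RELB, NFKBIA, NFKBIE, NFKBIZ and TNFAIP3, whereas RELA and NFKBIB are known as largely constitutive transcripts.

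The sequences just before the annotated start sites were searched for matches to the κB consensus, in letters alone. Most members were already known as genes induced by NF-κB, and no share was computed for a set of other NF-κB targets. RefSeq promoter sequence (GRCh38.p14) covered 14 starts of 8 members, and RELB and NFKBIE had none in the table used. In the 250 bases before a start, the 10-base κB consensus was searched on both strands, with overlapping matches kept. It was found before at least 1 start in 7 of the 8 members, all but RELA, and in 6.28% of all 27305 genes and 8.01% of the 9044 genes whose mean reached 100 in any table. Counted by start, 9 of 14 member starts held it, against 5.21% of all 35116 starts. One window for each of the 7 genes, with windows for 2 of the 3 starts of NFKB2, is given 5′ to 3′ on the gene's strand, with the matched bases in capitals.

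NFKB1, chr4:102501300-102501329, plus strand: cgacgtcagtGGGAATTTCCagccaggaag
NFKB2 middle start, chr10:102394462-102394490, plus strand: aaacgtcatGGGAATTCCCCcctccgggg
NFKB2 last start, chr10:102395674-102395703, plus strand: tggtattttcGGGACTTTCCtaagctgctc
REL, chr2:60881518-60881546, plus strand: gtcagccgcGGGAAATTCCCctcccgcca
NFKBIA, chr14:35404811-35404840, minus strand: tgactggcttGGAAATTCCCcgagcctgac
NFKBIB second start, chr19:38899932-38899960, plus strand: ggcgtggtgGGGAATTTCCCgcagggcgg
NFKBIZ first start, chr3:101827757-101827786, plus strand: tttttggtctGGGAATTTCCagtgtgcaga
TNFAIP3, chr6:137867188-137867217, plus strand: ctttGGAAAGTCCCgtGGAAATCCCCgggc

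The match began 49 bases before the NFKB1 start, 47 before REL, 81 before NFKBIA, 28 before the second NFKBIB start and 223 before the first NFKBIZ start. TNFAIP3 carried a pair of matches on the minus strand, the farther of which began 67 bases before the start. In GENCODE release 29 the NFKBIA and NFKBIZ windows lay outside all annotated exons of their gene, and each of the others touched an exon of at least 1 transcript of the same gene with an earlier start. The RUNX core sequences TGTGGT and TGCGGT, also searched on both strands, were found in 1 of the 8 members (NFKB2) and in 19.3% of all genes. These are matches of letters in a window and were not tested as binding sites.

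The tables tested 14975 genes for CBFB KO, 16394 for KO1 and 15636 for KO2. For each gene they hold a mean of normalized counts, a log2 fold change and its standard error (SE), with no value per sample, so levels of single samples, their SD and the overlap of groups cannot be shown. Where WT and knockout levels are given, they are those implied by the authors' mean and fold change with equal numbers of samples in both arms. The mean normalized counts summed to between 1.65e+07 and 2.02e+07 per library. For genes whose mean reached 100, the median SE was 0.12 (CBFB KO), 0.10 (KO1) and 0.21 (KO2), so that KO2 was measured with the least precision. In such bulk RNA, a change in every cell and a change in some of the cells cannot be told apart. CBFB mRNA fell by 4.88 on the log2 scale (SE 0.14) in CBFB KO. RUNX1 mRNA was higher by 0.54 (SE 0.09) in KO1 and by 0.46 (SE 0.13) in KO2, so mRNA does not verify the RUNX1 labels, and directions are those of the libraries labelled RUNX1 KO1 and KO2. By immunoblot the paper showed RUNX1 deletion in RUNX1 knockout MCF10A cells, and a loss of RUNX1 protein in CBFB knockout cells as well. Its text does not say whether those were the sequenced lines. Of 6 basal mammary markers, all were listed in CBFB KO and KO1 and 5, without KRT14, in KO2, and KRT5 had means of 87894 to 101688. Most of these markers changed in the same comparisons as the members. KRT14 rose by 2.97 in CBFB KO and 2.95 in KO1, KRT17 by 0.57, 0.69 and 1.27 in the 3 comparisons, ITGB4 by 0.63, 0.78 and 0.55, and TP63 by 0.76 in CBFB KO and 1.08 in KO1. KRT5 fell by 0.27 in CBFB KO and 0.24 in KO1, and EGFR was called in none. Of the epithelial markers, KRT18 rose by 0.92 and EPCAM by 0.43 in CBFB KO, and CDH1 by 0.51 in KO1. The part of this shift in the members' values was not tested. The leukocyte and endothelial markers that were listed had means of at most 2.49, among them PTPRC at 0.463 in CBFB KO. Of the fibroblast markers, PDGFRB and DCN had means of at most 7.34, and DCN fell by 1.06, 1.80 and 1.61 in CBFB KO, KO1 and KO2. PDGFRA stood at 466 to 633, with log2 fold changes of -0.35 to -0.05, none called.

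In CBFB KO, 6 of the 9 listed members rose and none fell at an adjusted p under 0.05 by the Wald test, where 11.7% of all genes tested were called higher and 7.97% lower. The 6 were NFKB1, RELA, NFKBIA, NFKBIB, NFKBIE and NFKBIZ. None reached a 2-fold increase together with the adjusted p, which 1.72% of genes did, though NFKBIE came close to it. In KO1, 8 of 10 members rose and 1 (NFKBIB) fell, with 19.7% of all genes called higher and 19.9% lower. RELB, NFKBIZ and TNFAIP3 were called at 2-fold or more, as were 3.36% of genes. In KO2, 4 of 10 members rose (NFKB2, RELB, NFKBIA and TNFAIP3) and none fell, where 8.76% of all genes were called higher and 6.08% lower. TNFAIP3 alone passed 2-fold there, among 3.9% of genes. The median log2 fold change over the members was 0.68, 0.76 and 0.69 (CBFB KO, KO1, KO2), beside -0.01, -0.00 and 0.02 for all genes tested. In CBFB KO it was over 9 members without TNFAIP3, and in each RUNX1 line over 10 that include it. TNFAIP3 had the largest fold change in both lines, so the order of these medians was not compared. In each comparison 9 members had a fold change above 0, which is all of those listed in CBFB KO, all but NFKBIB in KO1 and all but NFKB1 in KO2. NFKBIA was the one member called higher in all 3 comparisons.

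**Figure D1:**
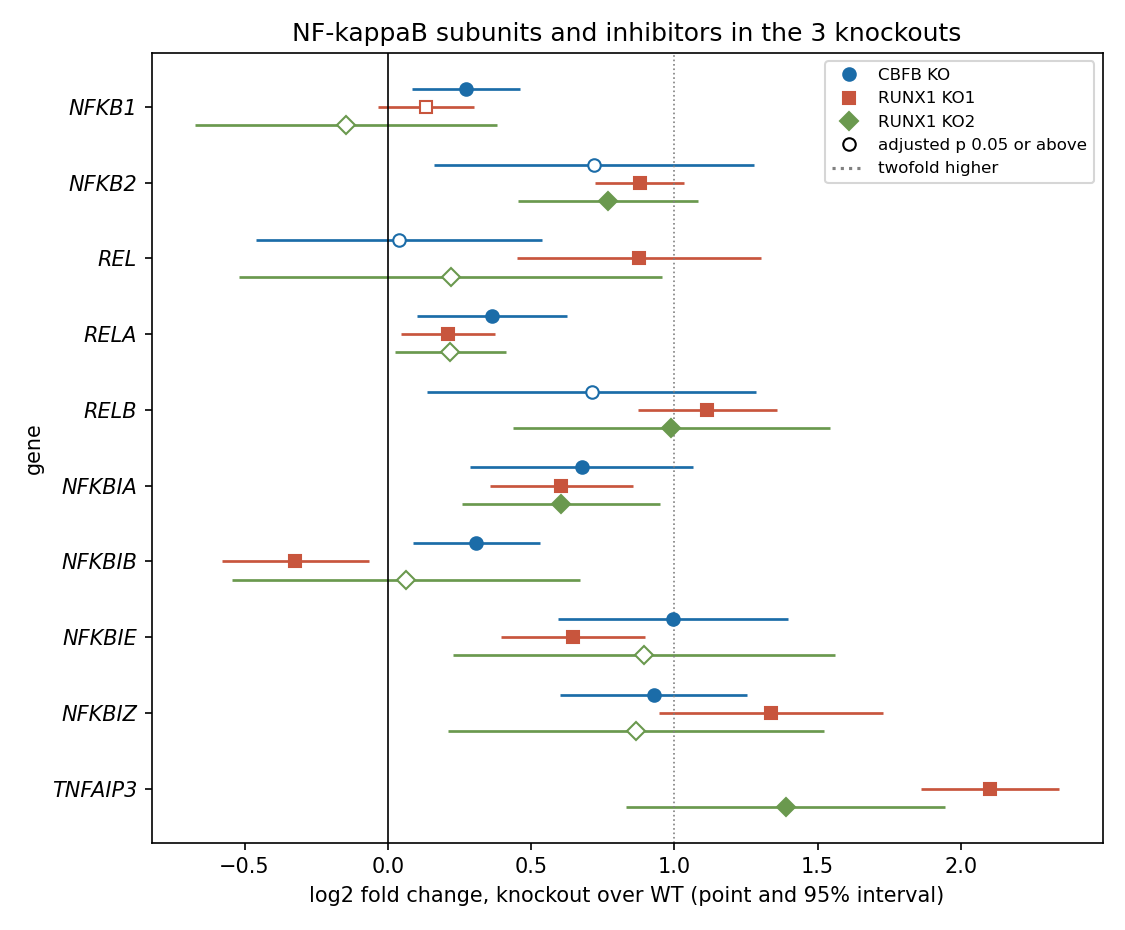
Log2 fold change of each member, knockout over WT (x axis), with its 95% interval from the deposited SE, for CBFB KO (circles), RUNX1 KO1 (squares) and RUNX1 KO2 (diamonds). Filled symbols have an adjusted p under 0.05. NFKB2, RELB, NFKBIA, NFKBIE and NFKBIZ lie between 0.61 and 1.34 in all 3 comparisons, TNFAIP3 is at 2.10 and 1.39 in the RUNX1 lines, and NFKB1, RELA and NFKBIB lie between -0.32 and 0.36.

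The subunits of the classical dimer changed little. NFKB1, whose product is processed from a precursor to the DNA-binding p50 subunit, had implied levels of 1691 normalized counts in WT and 2042 in CBFB KO. This was an increase of 0.27 on the log2 scale (SE 0.10, adjusted p = 0.0276). In KO1 the NFKB1 levels were 1213 in WT and 1331 in the knockout, with a log2 fold change of 0.13 (adjusted p = 0.212). In KO2 they were 1135 and 1026, with a log2 fold change of -0.15 and a 95% interval from -0.67 to 0.38. RELA, which supplies the main transactivation domain of the pathway, went from 1446 in WT to 1859.5 normalized counts in CBFB KO, an increase of 0.36 (SE 0.13, adjusted p = 0.0365). Its log2 fold change was 0.21 in KO1 (SE 0.08, adjusted p = 0.0314) and 0.22 in KO2 (SE 0.10, adjusted p = 0.131).

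These small calls depended on the processing. After correction of the fold changes for their trend with transcript length and GC content, NFKB1 and RELA were no longer called in CBFB KO (log2 fold changes of 0.23 and 0.23, adjusted p = 0.0845 and 0.231), nor RELA in KO1 (0.17, adjusted p = 0.106). The 24 expressed genes nearest to RELA on chromosome 11 had a median log2 fold change of 0.17 in CBFB KO, with 19 of 24 above 0, and of 0.21 in KO2. For the neighbors of NFKB1 on chromosome 4 the medians were -0.05, -0.06 and -0.16 in CBFB KO, KO1 and KO2. What part of the NFKB1 and RELA values goes with their neighbors was not tested.

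The non-canonical subunits NFKB2 and RELB rose in both RUNX1 lines, and in CBFB KO both missed the threshold. NFKB2, whose p100 product both restrains RELB and gives rise to p52, had implied levels of 943 in WT and 1734 in KO1, and of 897 in WT and 1529 in KO2. The increases were 0.88 on the log2 scale (SE 0.08, adjusted p = 5.56e-27) and 0.77 (SE 0.16, adjusted p = 3.60e-05). In CBFB KO the levels were 1030.3 and 1698, a log2 fold change of 0.72 that was close in size to both but carried a larger SE of 0.28, and its adjusted p of 0.0562 missed the threshold. At that SE, a fold change under 0.74 could not have been called.

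RELB rose 2.17-fold in KO1 (95% interval 1.83 to 2.56, adjusted p = 9.58e-18), from 203 to 441 normalized counts. In KO2 it rose 1.98-fold (1.35 to 2.91, adjusted p = 0.00512), from 202 to 402. CBFB KO gave 1.64-fold (1.10 to 2.44, adjusted p = 0.0691), from 250.2 to 409.5, with the threshold missed as for NFKB2. In KO2 the expressed neighbors of RELB on chromosome 19 had a median log2 fold change of 0.26, with 17 of 24 above 0, and the RELB call was lost when the length and GC trend was removed (0.74, adjusted p = 0.0615). The corresponding neighbor medians were 0.11 in CBFB KO and 0.04 in KO1. MAP3K14, which encodes the kinase NIK at the head of this branch, was called higher in CBFB KO (0.54, adjusted p = 0.0336) and in KO1 (0.24, adjusted p = 0.0314), and stood at 0.00 in KO2 (95% interval -0.21 to 0.22, adjusted p = 0.995). It is named because it belongs to the branch and was picked after its values were seen.

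REL, which encodes c-Rel, a subunit prominent in lymphoid cells, was the least abundant member. Per kb of its 11255-base annotated transcript, its implied WT level was 6.45 normalized counts in the CBFB experiment and 2.97 in the KO1 table, against 485 to 749 for RELA and NFKBIA in the same tables. At such counts the deposited fold changes are drawn toward 0. REL rose in KO1 by 0.88 (SE 0.22, adjusted p = 2.79e-04), from 33.4 to 61.3 normalized counts. In KO2 the value was 0.22, with an interval from -0.52 to 0.96, and in CBFB KO 0.04, with an interval from -0.46 to 0.54.

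Among the cytoplasmic inhibitors, NFKBIA rose in all 3 comparisons, NFKBIE rose in CBFB KO and KO1, and NFKBIB was called in opposite directions in those 2. NFKBIA encodes IκBα, the inhibitor that NF-κB resynthesizes to end its own response. It rose 1.60-fold in CBFB KO (95% interval 1.22 to 2.09, adjusted p = 0.00581), from 1167 to 1866 normalized counts. The increase was 1.52-fold in KO1 (1.28 to 1.81, adjusted p = 1.44e-05) and also 1.52-fold in KO2 (1.20 to 1.93, adjusted p = 0.00631). Its neighbors on chromosome 14 had medians of -0.04, -0.03 and -0.08.

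NFKBIE encodes IκBε, a second inducible inhibitor. Its implied level went from 151 in WT to 301 in CBFB KO, a 1.99-fold increase (95% interval 1.51 to 2.63, adjusted p = 2.30e-05). In KO1 it went from 175 to 274, an increase of 0.65 (SE 0.13, adjusted p = 3.97e-06). In KO2 the levels were 184 and 342, and the log2 fold change of 0.89 (SE 0.34, adjusted p = 0.0557) was not called.

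NFKBIB, for the more slowly degraded IκBβ, was the one member with calls in opposite directions. In CBFB KO its implied level was 570.2 in WT and 706 in the knockout, an increase of 0.31 (SE 0.11, adjusted p = 0.0339). In KO1 it was 799.8 in WT and 639.7 in the knockout, which gave -0.32 (SE 0.13, adjusted p = 0.0363). KO2 gave 762 and 797, or 0.06 (interval -0.54 to 0.67). Neither call held with the length and GC trend removed (0.17, adjusted p = 0.314 in CBFB KO and -0.18, adjusted p = 0.305 in KO1). The KO1 call was also lost when fold changes were centred on their median (adjusted p = 0.0527).

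NFKBIZ and TNFAIP3 had the largest fold changes of the members in KO1. NFKBIZ encodes IκBζ, a nuclear protein that works with p50 to switch on secondary response genes such as those of antimicrobial defense. It rose 1.90-fold in CBFB KO (95% interval 1.52 to 2.38, adjusted p = 6.72e-07), from 118 to 224 normalized counts, and 2.53-fold in KO1 (1.93 to 3.31, adjusted p = 3.56e-10), from 61.1 to 154. In KO2 it was 1.82-fold (1.16 to 2.87, adjusted p = 0.0610), from 58.3 to 106, short of the threshold.

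TNFAIP3 encodes A20, which edits ubiquitin chains on signaling adaptors and is itself strongly induced by NF-κB. Its implied level was 151 in WT and 649.5 in KO1, which was 4.30-fold (95% interval 3.63 to 5.08, adjusted p = 2.58e-63). In KO2 it was 152 in WT and 397 in the knockout, or 2.62-fold (1.78 to 3.85, adjusted p = 2.37e-05). The WT libraries were the same in both. Among all genes whose mean reached 100, the TNFAIP3 fold change lay at percentile 99.5 in KO1 and 99.0 in KO2. Its 24 expressed neighbors on chromosome 6 had medians of -0.03 and -0.05. CBFB KO gave no value, because TNFAIP3 was not listed there.

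Levels per kb of annotated transcript separated the members into the abundant and the scarce. In the WT of the KO1 table, NFKBIB stood at 690.1 normalized counts per kb, NFKBIA at 612, RELA at 485, NFKB2 at 304 and NFKB1 at 297. RELB followed at 88.7, NFKBIE at 67.8, TNFAIP3 at 31.9, NFKBIZ at 15.6 and REL at 2.97. With no values per sample, the spread that would separate neighbors in this order is not known, and NFKB2 and NFKB1 differed by little. In KO1 itself NFKBIA became the most abundant, at 931 per kb, and TNFAIP3 moved above NFKBIE, at 137 against 106.

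**Figure D2:**
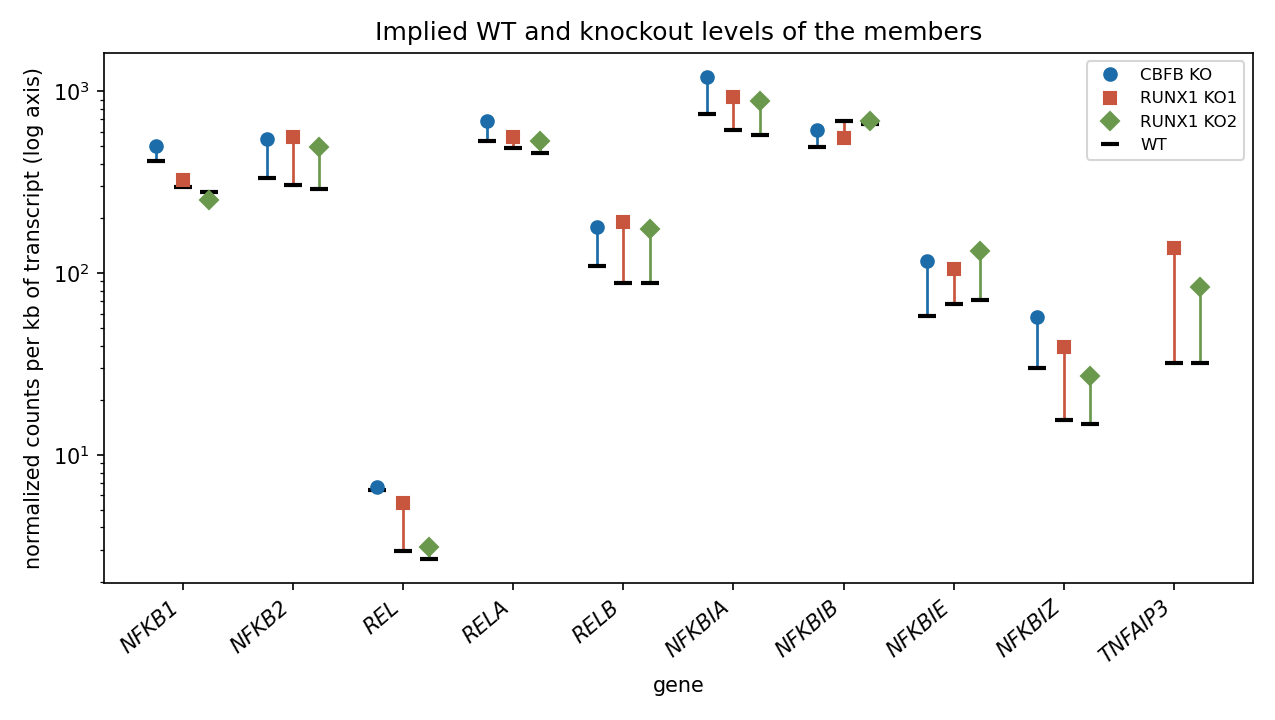
Implied WT level (black bar) and knockout level (colored symbol) of each member in normalized counts per kb of annotated transcript, on a log axis, for the 3 comparisons. Levels span from 2.69 for REL to 1198 for NFKBIA, and the longest lines are those of TNFAIP3, from 31.9 to 137 in KO1. No error is drawn, because the tables hold no values per sample, and levels of the CBFB and RUNX1 experiments were normalized separately.

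The response of each member to the loss of CBFB was set against its response in each RUNX1 line, which share no library. Of the 9 members listed in both tables, 1 differed between CBFB KO and KO1 at an adjusted p under 0.05, where 9.84% of all genes did. It was NFKBIB, with a difference of 0.63 on the log2 scale (SE 0.17, 95% interval 0.29 to 0.97, adjusted p = 0.00688), and with the length and GC trend removed the difference was 0.35 (adjusted p = 0.281). REL came next, at -0.84 (interval -1.49 to -0.18, unadjusted p = 0.0122, adjusted p = 0.0901). Between CBFB KO and KO2, none of the 9 members differed by the same Wald test, none had an unadjusted p under 0.05, and 2.9% of all genes were called. These intervals are wide. For RELB the difference from KO2 was -0.28 with an interval from -1.07 to 0.52, and for NFKBIE it was 0.10 with an interval from -0.68 to 0.88. The narrowest against KO1, for NFKB1, ran from -0.11 to 0.39, and the narrowest against KO2, for RELA, from -0.18 to 0.47. The experiment and the gene that was lost cannot be told apart in these differences, since each experiment had its own WT.

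**Figure D3:**
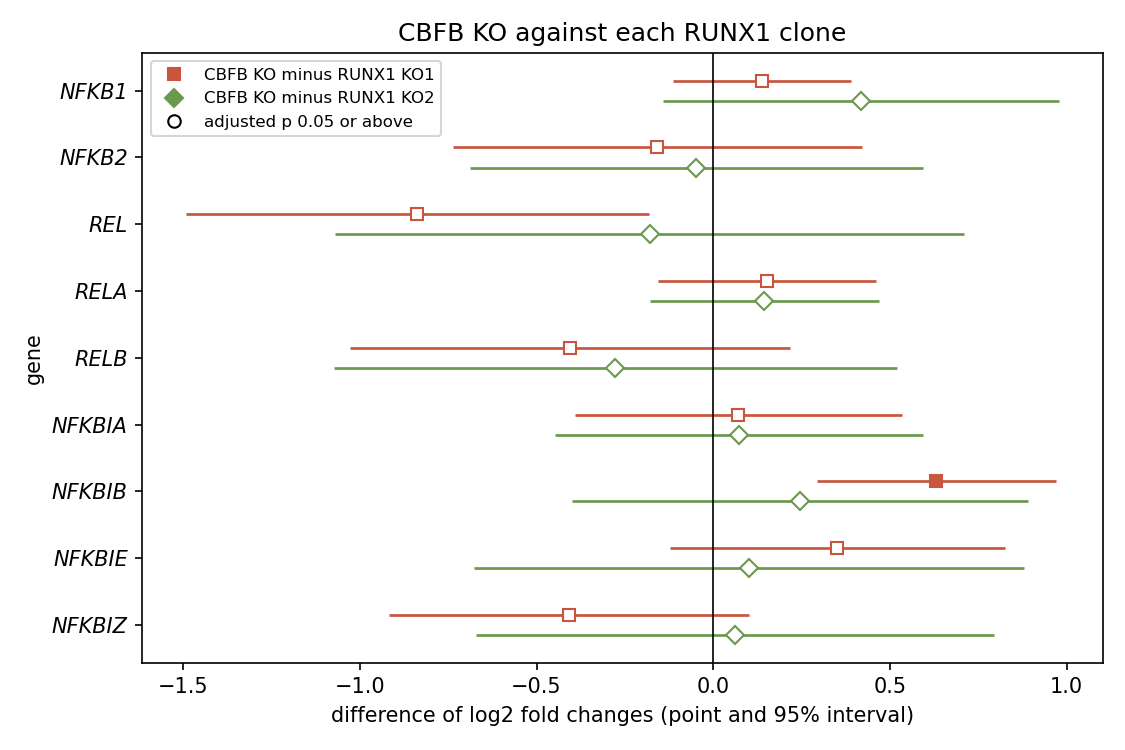
Difference of log2 fold changes, CBFB KO minus RUNX1 KO1 (squares) and CBFB KO minus RUNX1 KO2 (diamonds), with 95% intervals, for the 9 members in all tables. A filled symbol has an adjusted p under 0.05. NFKBIB against KO1, at 0.63, is the one filled symbol, and the other intervals include 0 apart from that of REL against KO1.

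Genes placed around the members by role were then counted, from the cytokines that start the pathway to the genes it switches on. Of the 18 ligands listed for the pathway, 10 could be tested for CBFB KO and 4 of them rose. Of 11 tested for KO1, 6 rose, of 10 tested for KO2, 5 rose, and none fell in any comparison. The shares called higher were 40%, 54.5% and 50%, beside 11.7%, 19.7% and 8.76% of all genes. Lower calls were made for 7.97%, 19.9% and 6.08% of all genes, so few were to be looked for among so few ligands. IL1B, for the secreted inflammatory cytokine interleukin-1β, rose by 4.85 on the log2 scale in CBFB KO (SE 0.20), from 66.8 to 1927 normalized counts. It rose by 3.37 in KO1 (SE 0.15) and by 2.50 in KO2 (SE 0.20). The IL1B response of CBFB KO was larger than that of KO1 by 1.48 (SE 0.25, adjusted p = 2.96e-07) and than that of KO2 by 2.35 (SE 0.28, adjusted p = 2.09e-14). IL1A, the related cytokine that acts from the cell of origin, rose by 3.30 in KO1 and 2.35 in KO2 and was not listed for CBFB KO. TNFSF15, a TNF family ligand, rose by 2.88, 2.99 and 2.86 in the 3 comparisons, and TNFSF12, which encodes TWEAK, by 0.61, 0.55 and 0.80. TNF itself was scarce, with means of 3.67 to 5.67.

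Of the 20 receptors, 17 could be tested in CBFB KO and 19 in each RUNX1 line. In CBFB KO 4 rose and 1 fell, in KO1 9 rose and 2 fell, and in KO2 2 rose and 1 fell. The shares called higher were 23.5%, 47.4% and 10.5%, beside 11.7%, 19.7% and 8.76% of all genes, so KO2 was near the share of all genes. TNFRSF1A, the main TNF receptor, rose by 0.56 in CBFB KO (SE 0.11) and 0.37 in KO1 (SE 0.09), and its value in KO2 was 0.34 (adjusted p = 0.0886). LTBR, the lymphotoxin receptor that feeds the non-canonical branch, rose by 0.47 and 0.28 and stood at 0.31 in KO2 (adjusted p = 0.283). TLR3, a sensor of double-stranded RNA, rose by 0.56 and 0.69, and IL17RA by 0.39 and 0.35. In KO2 TLR3 stood at 0.43 and IL17RA at 0.31, with neither called. IL1R1, TLR6 and IL17RC rose in KO1 by 0.40, 0.39 and 0.38. In CBFB KO their log2 fold changes were -0.13, -0.16 and 0.39, and in KO2 0.00, 0.07 and 0.57, with none called. The receptor that fell in all 3 comparisons was CD40, with means of 8.74 to 21.8, which was singled out after its values were seen.

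Of 29 signaling genes, all of them tested, 8 rose and 2 fell in CBFB KO, 12 rose and 3 fell in KO1, and 4 rose with none falling in KO2. The shares called higher were 27.6%, 41.4% and 13.8%, beside 11.7%, 19.7% and 8.76% of all genes. IKBKE, an IκB kinase relative that is itself inducible, rose by 1.02 in CBFB KO (SE 0.22), 0.86 in KO1 (SE 0.11) and 0.80 in KO2 (SE 0.24). MYD88, the adaptor of IL-1 and Toll-like receptors, rose by 0.75, 0.86 and 0.62. RIPK1, the kinase at the TNF receptor, rose by 0.60 in KO1 and 0.47 in KO2, and CARD10 by 0.59 in CBFB KO and 0.41 in KO1. TRADD rose by 0.70 in CBFB KO and 0.46 in KO1. In KO2 TRADD stood at 0.87 (SE 0.33, adjusted p = 0.0507 by the Wald test) and CARD10 at 0.12, with neither called. In this list the median log2 fold change was 0.09, 0.13 and 0.02, near that of all genes.

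Other inhibitors, 16, 17 and 16 of them tested, rose in 3, 8 and 2 cases and fell in 0, 1 and 0. The shares called higher were 18.75%, 47.1% and 12.5%, beside 11.7%, 19.7% and 8.76% of all genes, so KO2 was near the share of all genes. TNIP1, a partner of A20, rose by 0.59 in KO1 (SE 0.10) and 0.51 in KO2 (SE 0.18). Its value in CBFB KO was 0.55 (SE 0.28, adjusted p = 0.156). TOLLIP, a brake on Toll-like receptor signaling, rose by 0.49 in KO1 and 0.58 in KO2. ITCH, a ubiquitin ligase that works with A20, rose by 0.61 in KO1, as did ZC3H12A, which encodes an RNase that degrades inflammatory mRNAs, by 0.65. PDLIM2, which promotes the destruction of nuclear RELA, fell by 0.82 in KO1 (SE 0.10). BCL3, a nuclear IκB protein, rose by 0.52 in CBFB KO and TNIP2 by 0.44. OTULIN, which removes linear ubiquitin chains, rose by 0.84 in CBFB KO (SE 0.09), where its 24 expressed neighbors on chromosome 5 had a median of 0.81 with 23 of 24 above 0. The OTULIN value was therefore about that of its neighborhood.

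Target genes of the pathway were called higher in 6 of 21 tested in CBFB KO, 15 of 29 in KO1 and 9 of 28 in KO2, and lower in 2, 3 and 0. The shares called higher were 28.6%, 51.7% and 32.1%, beside 11.7%, 19.7% and 8.76% of all genes. ICAM1, a leukocyte adhesion molecule, rose from 134 to 379 normalized counts in CBFB KO, from 119.8 to 350.3 in KO1 and from 112 to 333 in KO2, with SEs of 0.20, 0.11 and 0.13 on the log2 scale. CXCL1, a neutrophil chemokine, rose by 1.85, 2.11 and 1.66, and its near relative CXCL2, with which reads can be shared, by 0.95 in CBFB KO and 0.81 in KO1. The KO2 value of CXCL2 was 0.59, not called. IRF1 rose by 0.77 in CBFB KO and 0.43 in KO1, and stood at 0.49 in KO2, which was not called. In the RUNX1 tables MMP9, a secreted protease, rose by 4.92 and 4.46, CXCL8 by 2.28 and 1.49, PTGS2, the inducible cyclooxygenase, by 2.19 and 1.37, and PLAU, for urokinase, by 2.09 and 1.63. None of these 4 was listed for CBFB KO. SAA1, an acute phase protein with a close copy in SAA2, went the other way, falling by 1.53 in CBFB KO and by 2.89 in KO1, with -0.78 in KO2 (adjusted p = 0.177).

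**Figure D4:**
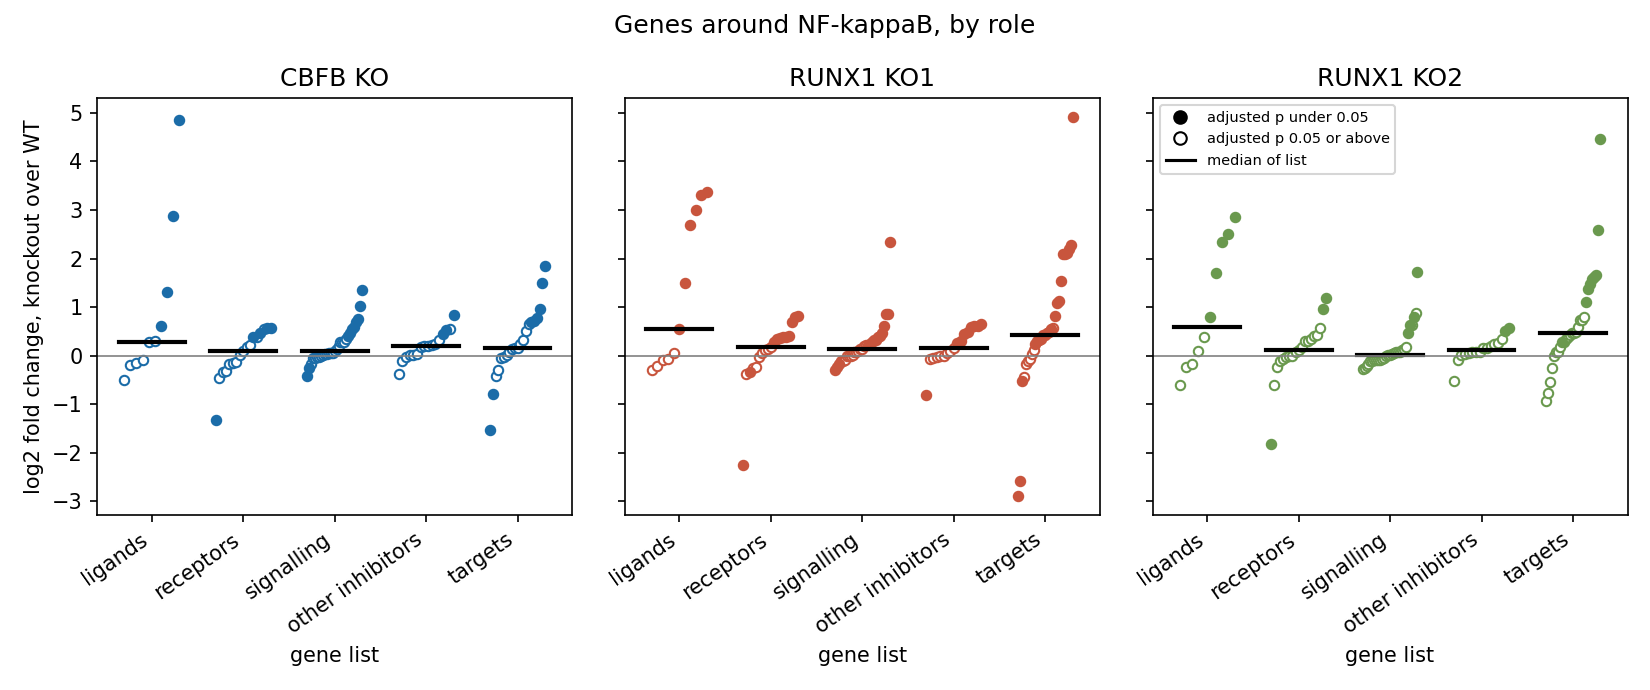
Log2 fold change, knockout over WT (y axis), of every tested gene of 5 lists (x axis) in CBFB KO, RUNX1 KO1 and RUNX1 KO2, each point a gene, filled where the adjusted p is under 0.05, with the median of the list as a black line. The list medians run from 0.02 to 0.59, and the highest points are IL1B at 4.85 in CBFB KO and MMP9 at 4.92 in KO1 and 4.46 in KO2.

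The median log2 fold change of the lists was 0.29, 0.55 and 0.59 for ligands, 0.10, 0.19 and 0.12 for receptors, 0.20, 0.17 and 0.12 for other inhibitors and 0.16, 0.43 and 0.47 for targets, in the order CBFB KO, KO1 and KO2. The members' own medians of 0.68, 0.76 and 0.69, the first without TNFAIP3, were above each of these. The tested genes of a list differed between comparisons, with 21, 29 and 28 targets. IL1A, MMP9, CXCL8, PTGS2 and PLAU were not listed for CBFB KO, so the order of list medians across comparisons was not compared. Some reads of the members cannot be assigned with certainty, because the strand setting of the counting is not given in the sources used here. NFKB1, REL, RELA, NFKBIZ and TNFAIP3 overlap another annotated gene, and no named pseudogene of any member was in the annotation.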

How the data were processed

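RNA-seq was performed on 18 MCF10A samples in 5 groups taken from the labels. The labels name a poly-A selection kit and the methods describe rRNA removal, so the selection is unsure. Per the labels, the tools named in the submitters' processing notes are Trimmomatic, STAR and DESeq2, and the build is hg19. The read counter and annotation are not given in the sources used here. Only the authors' 3 tables of knockout against WT were used, with 0 columns of per-sample values. The deposited mean of normalized counts is treated as a signal. The deposited log2 fold change from the authors' DESeq2 fit is shrunk toward 0 for weakly expressed genes, and it and its SE were used as the authors' values, since no other measurement of the members was in the files. The authors' deposited test score is the ratio of these 2 columns. The deposited p-values, raw and adjusted, served for a check and to define which genes were tested.

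From these, two-sided Wald p-values were recomputed with Benjamini-Hochberg adjustment over all genes tested in a table. They deviated from the deposited adjusted p-values by at most 6.78e-04, and 0 calls differed. The threshold was 0.05, and 2-fold where stated. Intervals are 95% normal intervals. Differences between CBFB KO and each RUNX1 line were tested as the difference over the combined SE. KO1 and KO2 have common WT libraries and were not compared. The samples of a group are not stated to be separate cultures, so p-values measure the spread between these samples. Scripts were tested on simulated data. The length and GC trend used GENCODE 29 transcripts, with values for at least 98.9% of genes whose mean reached 100. Neighbors are the 12 expressed genes on each side in RefSeq order. Genes beside the members were named by a rule, the up to 4 called genes of largest fold change and a mean of 100 or more per list and comparison. Python 3.11.15, numpy 2.4.6, scipy 1.17.1, pandas 2.3.3 and matplotlib 3.10.9 were used. The members, lists and tests were chosen with earlier results of these data known.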

Additional observations from a re-analysis of the deposited data

Results flagged for a closer look

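NFKBIB was singled out because its responses to the loss of CBFB and to the loss of RUNX1 in KO1 differed by a test of the difference itself. It was 1 of 9 members tested, where 9.84% of all genes were called, so the count of members is near the share of all genes. The difference was 0.63 on the log2 scale (SE 0.17, adjusted p = 0.00688 by the Wald test with Benjamini-Hochberg adjustment), made of an increase of 0.31 in CBFB KO and a fold change of -0.32 in KO1. With the trend on transcript length and GC content removed, the difference was 0.35 (adjusted p = 0.281). Against KO2 it was 0.25 (interval -0.40 to 0.89). NFKBIB has the shortest annotated transcript of the members, at 1159 bases, and the part of its length in this difference was not tested.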

How the results depend on the processing

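Alternatives removed the trend on transcript length and GC content, centred each table on its median, tested only genes with a mean of at least 100 or all genes listed, or used an adjusted p under 0.01. Of 141 recomputed member fold changes, 126 kept their direction and their side of the threshold, 12 lost and 2 gained a call, and 1 changed sign. That was NFKBIB in KO2, uncalled, at -0.24 with the trend removed. Of 87 recomputed differences, 3 uncalled ones also changed sign with the trend removed, NFKBIA against KO1 (-0.13) and NFKB2 and NFKBIZ against KO2 (0.0037 and -0.00069). The 2 gained were NFKB2 in CBFB KO with genes of a mean of at least 100 (adjusted p = 0.0487) and NFKBIZ in KO2 with the trend removed (adjusted p = 0.0453). Members called in CBFB KO numbered 3 instead of 6 with the trend removed and 3 at 0.01. At a fold of 1.5 instead of 2 the members called were 3 for CBFB KO, 7 for KO1 and 4 for KO2. The members that differed between CBFB KO and KO1 went from 1 to 0 with the trend removed. With the trend removed, 6 receptors were called in KO1 instead of 11. At 0.01 there were 6 receptors and 9 signaling genes in KO1, and 1 receptor, 2 signaling genes and 0 other inhibitors in KO2. With genes of a mean of at least 100, 0 receptors were called in KO2. Apart from the settings that only move a threshold, the cause of these shifts was not tested.

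No paired analysis was possible because the tables hold no columns of single samples, and leaving out each replicate in turn was not run for the same reason. The depth of single libraries is unknown. The precision of KO2 limits its calls, since a member needed a log2 fold change of 0.26 (RELA) to 1.01 (REL) to be called there, against 0.18 (NFKB2) to 0.51 (REL) in KO1.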

Other observations

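Among ligands with means under 100, TNF and LTB were left out of the genes named by rule. LTB, for lymphotoxin-β, part of a ligand of LTBR, had log2 fold changes of 1.32 in CBFB KO and 2.70 in KO1. The adjusted p-values were 4.71e-05 and 2.55e-17 by the Wald test, at means of 9.68 and 15.2. LTB was not listed for KO2. LTA, for lymphotoxin-α, had means of 0.416 in CBFB KO and 0.248 in KO1 and was not among the genes tested. TNF was called higher in KO1 and KO2 (adjusted p = 1.16e-05 and 5.44e-04), by 1.70 in the latter, and stood at 0.31 in CBFB KO (adjusted p = 0.273). IRAK2, a kinase of the IL-1 receptor complex, was higher in all 3 comparisons, by 1.35, 2.35 and 1.72, at means of 27.0 to 57.4. EBI3, a cytokine subunit, was higher by 2.09 in KO1 and 2.58 in KO2 at means under 100. These genes were chosen after their values were seen.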
